A study of Mus musculus with 72 samples.

Results

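The genes described here are 8 markers of the projection neurons of the striatum, the input nucleus of the basal ganglia. Drd1, Tac1, Pdyn and Chrm4 are known from the neurons of the direct pathway and are called D1-type genes below, while Drd2, Adora2a, Penk and Gpr6 are known from the neurons of the indirect pathway and are called D2-type genes. They were taken by symbol, and each matched 1 of the 35275 Ensembl gene identifiers of the count table through the GENCODE M21 annotation of GRCm38. Averaged over the feeding regimens, all 8 were lower than sham at 12, 24 and 72 h of reperfusion after a stroke. The falls were largest at 24 h, and Drd2 fell further than Drd1. For the other matched pair, the ratio of Penk to Tac1 did not pass its test against sham at any stage.

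Striatal projection neurons are GABAergic and make up most neurons of the striatum. Those of the direct pathway project to the output nuclei of the basal ganglia, carry the D1 dopamine receptor and make substance P and dynorphin, while those of the indirect pathway project to the external pallidum, carry the D2 dopamine receptor and an adenosine receptor and make enkephalin. The middle cerebral artery supplies the lateral striatum and much of the cortex, so the striatum lies in the territory of this stroke model.

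The 72 RNA-seq libraries were made from brain tissue of 7-month-old C57BL/6 mice. The middle cerebral artery was occluded on 1 side for 1 h, and a coronal slice from the middle of that side of the cerebrum was collected. Mice were sampled at 6 stages: sham, the end of the occlusion (ischemia alone), and 3, 12, 24 or 72 h after flow was restored. All stages were sampled in each of 4 regimens, which gave 24 groups of 3 libraries. Mice fed ad libitum (AL) always had food, every-other-day fasted mice (EOD) alternated 24 h without food and 24 h with food, and IF12 and IF16 mice fasted daily for 12 and 16 h over 4 months. The sources used here do not give the time spent on EOD or details of the sham operation. The tissue is labelled only as brain. Whether each library is a separate animal is not stated, so p-values here measure the spread between samples, and part of it may be technical. The slice is bulk tissue that also holds cortex and other regions.

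Library totals ran from 16735707 to 24763161 counts, and TMM scaling factors, which adjust library sizes for composition, from 0.912 to 1.09. The summed level of 7 hippocampus genes ran from 33.3 to 178 CPM (counts scaled to library size) in the 12 sham libraries and exceeded the highest sham library in 7 others, namely replicate 1 of AL and replicate 3 of EOD after ischemia alone, replicates 1 and 2 of EOD at 12 h, replicate 3 of EOD and replicate 3 of IF16 at 24 h, and replicate 2 of IF12 at 72 h. Their sums ran from 185 to 373 CPM. In a bulk slice, fewer striatal neurons and less RNA of these genes per neuron cannot be told apart, and how much striatum each slice held was not recorded in the labels.

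Promoter windows, from 250 bases before to 50 bases after the start annotated in RefSeq (GRCm38.p6), were found for 6 of the 8 genes. None was found for Adora2a and Penk. The annotated start lay 5060 bases from the GENCODE gene start for Chrm4, 224 for Drd2 and 182 for Tac1. It lay 94 bases away for Pdyn, 47 for Drd1 and 5 for Gpr6. Drd1 and Pdyn had 2 windows each, and the one nearest the GENCODE start was used. Those of the dopamine receptors, the substance P precursor gene and Gpr6 are shown. They set a pair of D1-type genes beside the only D2-type genes with a window. Each is written 5′ to 3′ on the strand of its gene, and capitals mark the GC box GGGCGG and the core TGACG of the cyclic AMP response element (CRE), the motif of a pathway that dopamine receptors act on, in either orientation.
Drd1 (chr13:54055609-54055908, minus strand): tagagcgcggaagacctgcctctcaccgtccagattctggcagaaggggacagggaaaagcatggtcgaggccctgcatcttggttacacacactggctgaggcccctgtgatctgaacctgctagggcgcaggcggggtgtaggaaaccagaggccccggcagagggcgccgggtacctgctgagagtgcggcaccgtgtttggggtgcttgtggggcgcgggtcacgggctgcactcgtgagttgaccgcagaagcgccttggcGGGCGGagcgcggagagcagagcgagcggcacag
Tac1 (chr6:7554811-7555110, plus strand): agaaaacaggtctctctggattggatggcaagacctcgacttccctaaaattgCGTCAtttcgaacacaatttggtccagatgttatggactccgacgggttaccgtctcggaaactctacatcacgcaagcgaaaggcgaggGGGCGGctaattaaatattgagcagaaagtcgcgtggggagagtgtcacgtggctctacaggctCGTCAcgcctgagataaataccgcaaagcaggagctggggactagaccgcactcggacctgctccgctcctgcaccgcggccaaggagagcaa
Drd2 (chr9:49340153-49340452, plus strand): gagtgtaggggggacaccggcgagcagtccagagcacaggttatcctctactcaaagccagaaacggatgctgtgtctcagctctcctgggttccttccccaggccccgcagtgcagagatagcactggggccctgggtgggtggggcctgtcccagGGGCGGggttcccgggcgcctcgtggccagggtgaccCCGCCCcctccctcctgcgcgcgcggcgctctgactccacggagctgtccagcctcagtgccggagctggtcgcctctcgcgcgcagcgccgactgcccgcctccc
Gpr6 (chr10:41072241-41072540, minus strand): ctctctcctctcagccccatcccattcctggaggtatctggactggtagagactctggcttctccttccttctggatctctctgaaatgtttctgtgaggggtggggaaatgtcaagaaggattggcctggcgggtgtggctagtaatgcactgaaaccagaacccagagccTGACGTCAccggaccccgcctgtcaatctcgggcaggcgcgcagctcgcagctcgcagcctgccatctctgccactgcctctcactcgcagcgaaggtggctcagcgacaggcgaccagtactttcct
The window of Drd1 held 1 GC box and that of Drd2 held 2. Tac1 had 1 GC box and 2 CRE cores. Gpr6 had no GC box, and its 2 overlapping cores form the full CRE TGACGTCA, which starts 78 bases before the annotated start. Of 32851 promoter windows of the same length, 35.7% held the GC box, 20.8% the core and 1.79% the full CRE. The windows of Pdyn and Chrm4 held no CRE core, with 0 and 4 GC boxes, partly overlapping. The AP-1 motif TGANTCA, found in 7.81% of windows, was in none of the 6. These are matches of letters and show no binding.

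In sham mice the genes differed widely in level per length, given as FPKM, which divides counts by gene length and library size. Penk, the enkephalin precursor, was highest, with a median of 281 FPKM over 12 libraries, and stood above Adora2a in 12 of 12 libraries. Adora2a, an adenosine receptor of indirect-pathway neurons, had a median of 55.3 and Pdyn, the dynorphin precursor, 50.6 FPKM, and neither was consistently above the other. Drd2, the D2 dopamine receptor, followed at 40.1 and Tac1, the substance P precursor, at 39.7 FPKM. Drd2 was above Tac1 in only 2 of 12 libraries, so their order rests on medians that are nearly equal. Chrm4, the M4 muscarinic receptor, had 25.5 FPKM, Drd1, the D1 dopamine receptor, 13.1, and Gpr6, an orphan receptor that couples to cyclic AMP, 13.0. Chrm4 exceeded Drd1 in 12 of 12 libraries, while Drd1 exceeded Gpr6 in 7. A D2-type gene thus headed the order, and Drd1 and Gpr6, with nearly equal medians, stood at its end.

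The same sham libraries varied several-fold in these genes. Drd1 ran from 16.9 to 102 CPM, a 6.01-fold range, and Gpr6 from 5.58 to 44.4 CPM, a 7.96-fold range, while Chrm4 ran only from 24.6 to 54.5 CPM, 2.22-fold. The lowest value of 7 genes was in replicate 1 of IF16 sham, and the highest value of Drd1, Tac1, Pdyn and Chrm4 was in replicate 3 of the same group. That low library had 119 CPM of hippocampus genes and 2886 CPM of 16 genes shared by both kinds of projection neuron, the lowest sum of the sham libraries, where the median was 5911 CPM. The part of the slice's position in this spread was not tested. For Chrm4 the lowest sham value was in replicate 1 of EOD.

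**Figure D1:**
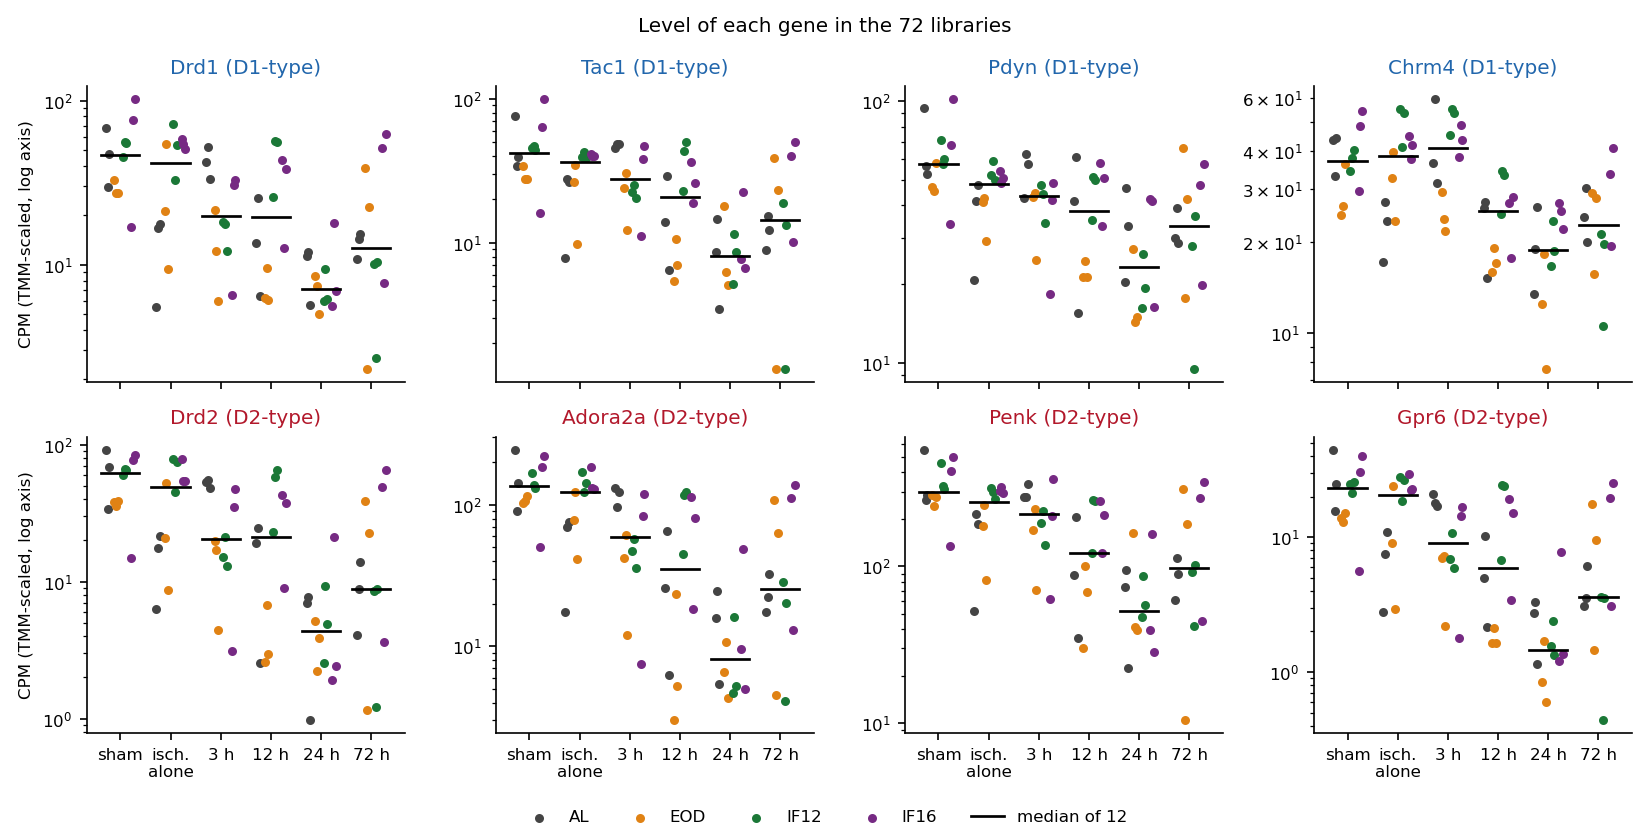
Level of each gene in CPM after TMM scaling, on a log axis, in the 72 libraries by stage. Each point is a library coloured by regimen (AL, EOD, IF12 and IF16 from left to right within a stage) and each black bar the median of 12 libraries. At 24 h all 12 points of every gene lie below the sham median, and at 72 h the points spread over the widest range for 7 genes, Chrm4 included.

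Ischemia alone asked whether the genes had moved by the end of the occlusion. Averaged over regimens, no member was called by edgeR at a Benjamini-Hochberg adjusted p under 0.05, where 0.139% of 17268 genes were called. Of the 8, only Pdyn had an unadjusted edgeR p under 0.05, as had 1017 of the 17268 genes. All 8 estimates were negative, from -0.60 ± 0.35 (SE) for Penk to -0.09 ± 0.14 for Chrm4 on the log2 scale, with adjusted p from 0.76 to 0.978. Drd1 ran from 5.48 to 72.0 CPM with a median of 41.6, against a sham median of 46.5. Its 2 lowest values, 5.48 and 9.38 CPM, were in replicate 1 of AL and replicate 3 of EOD, which are among the 7 libraries with high hippocampus sums, and the other 10 libraries overlapped with sham except replicate 2 of AL at 16.8 CPM.

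At 24 h the D1-type genes reached their lowest medians. Drd1 ran from 4.99 to 18 CPM with a median of 7.15, which was 15.4% of the sham median. Of the 12 libraries, 11 were below the lowest sham library, and replicate 2 of IF16 overlapped with sham. The log2 fold change was -2.48 ± 0.34 (SE; adjusted p = 8.85e-08, edgeR). Tac1 had a lowest value of 3.48, a median of 8.15 and a highest value of 22.7 CPM, against 16.2, 41.9 and 99.1 in sham. Here 10 of 12 libraries were below all sham libraries. Its change was -2.20 ± 0.35 (adjusted p = 1.48e-06, edgeR).

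Pdyn and Chrm4 fell less. Pdyn ran from 14.4 to 46.4 CPM with a median of 23.2, against 34.0 to 101.6 CPM with a median of 57.8 in sham, and 9 of 12 libraries were below every sham library. Its log2 fold change was -1.27 ± 0.22 (adjusted p = 3.94e-06, edgeR). Chrm4 had a lowest value of 7.60, a median of 18.8 and a highest value of 26.9 CPM against a sham median of 37.1, so that 50.6% of the median was left. Again 9 libraries lay below all of sham, and the other 3 overlapped with it. Its change, -1.0 ± 0.14 (adjusted p = 1.26e-07, edgeR), was the smallest of the 8.

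The receptors among the D2-type genes had the lowest remaining shares. Drd2 ran from 0.987 to 21.1 CPM at 24 h with a median of 4.4, against 14.9 to 91.2 CPM with a median of 62.6 in sham, and 7.02% of the median was left. Replicate 2 of IF16 was the only library that overlapped with sham. The log2 fold change was -3.31 ± 0.47 (adjusted p = 1.56e-07, edgeR). Adora2a had a lowest value of 4.29, a median of 8.11 and a highest value of 48.5 CPM, and all 12 libraries were below the lowest sham library, at 50.5 CPM. Its change of -3.55 ± 0.46 (adjusted p = 2.72e-08, edgeR) was the largest of the 8.

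Gpr6 went from a sham median of 23.1 CPM to 1.46 CPM, with 0.597 the lowest and 7.72 the highest value at 24 h. Only replicate 2 of IF16 overlapped with sham. Its change was -3.49 ± 0.42 (adjusted p = 4.21e-09, edgeR). Penk, the other neuropeptide precursor of the D2-type genes, ran from 22.5 to 164 CPM with a median of 52.0, against a sham median of 298 CPM, and 2 of the 12 libraries overlapped with sham. Its change of -2.23 ± 0.37 (adjusted p = 2.51e-06, edgeR) was close to that of Tac1 and short of those of the 3 D2-type receptors.

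All 8 genes were thus called lower at 24 h, where 24.3% of the 17268 genes tested were called lower and 49.8% called in either direction. The median log2 fold change was -1.73 over the D1-type genes, -3.40 over the D2-type genes and 0.0028 over all genes. The 8 calls held under DESeq2, other size factors, no filter, the replicate number as a block, without any regimen, without any 1 of the 24 libraries and without the 7 libraries with high hippocampus sums, a choice made after seeing the data. With the level of the 16 shared projection neuron genes as a covariate, 0 of the 8 were called, and the estimates ran from -0.22 for Gpr6 to 0.43 for Drd1. All 16 of these genes were themselves called lower at 24 h. This fit therefore takes out a fall that they share with the members, and it cannot decide whether the calls hold.

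**Figure D2:**
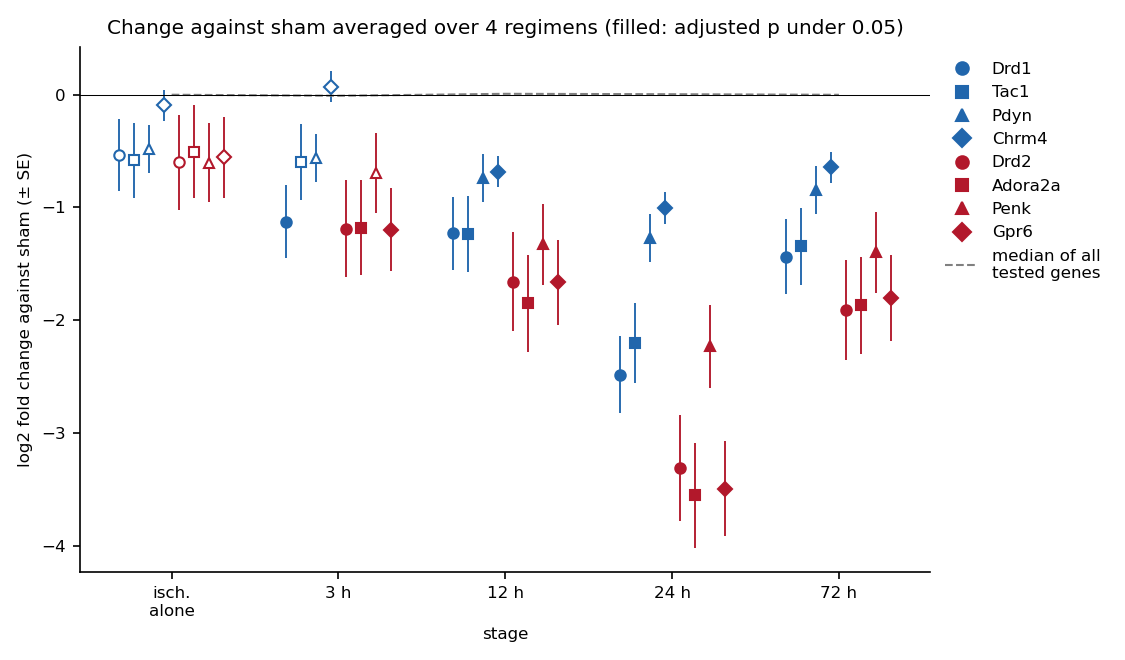
Log2 fold change against the shared sham libraries, averaged over 4 regimens (vertical axis, with SE), at the 5 later stages for the 4 D1-type genes (blue) and 4 D2-type genes (red). Filled symbols have an adjusted p under 0.05 by edgeR and the dashed line is the median of all tested genes; the lowest points are Adora2a, Gpr6 and Drd2 at 24 h, between -3.55 and -3.31.

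The 3 h stage asked how early the genes fell. Drd1 changed by -1.13 ± 0.33 on the log2 scale (adjusted p = 0.00925, edgeR), with libraries from 5.97 to 52.4 CPM around a median of 19.9, and 4 of 12 libraries were below all of sham. Drd2, Adora2a and Gpr6 changed by -1.19 ± 0.43, -1.18 ± 0.42 and -1.20 ± 0.37 (edgeR adjusted p = 0.0388, 0.0363 and 0.0149). Every library was below the sham median for these 3 receptors. Pdyn at -0.56 (adjusted p = 0.05), Tac1 at -0.60 (adjusted p = 0.203) and Penk at -0.69 (adjusted p = 0.158) did not pass the edgeR test, and Chrm4 was at 0.07 ± 0.14 (adjusted p = 0.761). These 4 calls compare with 11.1% of genes called lower. With the shared genes as a covariate none of these 4 was called, and Chrm4 was called higher (0.42, adjusted p = 0.00806, edgeR). The count was 0 without IF12, 2 without EOD or IF16, and 2 without any 1 of 7 libraries, namely AL sham replicate 1, IF16 sham replicates 2 and 3, and at 3 h AL replicate 2, EOD replicate 3, IF12 replicate 3 and IF16 replicate 1.

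At 12 h all 8 were called lower, where 9.82% of genes were, with a median of -0.98 over the D1-type and -1.66 over the D2-type genes. Adora2a ran from 3.04 to 122 CPM with a median of 35.5, all 12 libraries below the sham median and 7 below the lowest sham library. Its change was -1.85 ± 0.43 (adjusted p = 0.00156, edgeR). Chrm4, at 0.07 at 3 h, was at -0.68 ± 0.14 (adjusted p = 0.000407, edgeR), and all 12 libraries, from 15.3 to 34.3 CPM, were below the sham median. Of the steps between neighbouring stages, Chrm4 was the only member called between 3 and 12 h (-0.75 ± 0.14, adjusted p = 8.09e-05, edgeR), where 25.0% of genes were called, and none was called between ischemia alone and 3 h, where 15% were. None of the 8 had an unadjusted edgeR p under 0.05 in that first step, where 5182 of 17268 genes did. The 12 h count was 3 without EOD, 5 without AL and 0 with the shared genes as a covariate, while 8 were called without any 1 library.

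From 12 to 24 h, 7 genes fell further, all but Chrm4, where 15.8% of genes were lower. Gpr6 had the largest step at -1.83 ± 0.41 (adjusted p = 0.00122, edgeR) and Pdyn the smallest called step at -0.53 ± 0.21 (adjusted p = 0.0497). The 7 calls became 0 with the shared genes as a covariate, where 6 of the 7 estimates were above 0, 0 without IF12, and 2 without the libraries with high hippocampus sums. Those left out include replicates 1 and 2 of EOD at 12 h, with sums of 261 and 185 CPM. They also include replicate 3 of EOD and replicate 3 of IF16 at 24 h, with 226 and 276 CPM. The part of these sums in the step was not tested.

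At 72 h all 8 genes were still lower than sham, where 11% of genes were called lower. Drd2 had a lowest value of 1.16, a median of 8.86 and a highest value of 65.3 CPM, and its change was -1.91 ± 0.44 (adjusted p = 0.000797, edgeR). Chrm4 ran from 10.5 to 41.0 CPM around 22.7 and had the smallest change, -0.65 ± 0.14 (adjusted p = 0.000377, edgeR). The medians over the D1-type and D2-type genes were -1.09 and -1.83. Adora2a changed by -1.87 ± 0.43, Gpr6 by -1.80 ± 0.38, Drd1 by -1.44 ± 0.33, Penk by -1.40 ± 0.36, Tac1 by -1.34 ± 0.34 and Pdyn by -0.84 ± 0.21, with edgeR adjusted p from 0.000258 to 0.00256. Leaving out IF12 left 0 of 8 called and leaving out any other regimen left 8. With the shared genes as a covariate 0 were called, and 7 estimates, all but that of Chrm4, were above 0, from 0.12 for Pdyn to 0.32 for Drd1.

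The step from 24 to 72 h was a rise, called for 4 genes where 12.9% of genes were called higher. Gpr6 rose by 1.69 ± 0.41 (adjusted p = 0.00203), Adora2a by 1.68 ± 0.44 (adjusted p = 0.00373), Drd2 by 1.40 ± 0.46 (adjusted p = 0.0194) and Drd1 by 1.05 ± 0.34 (adjusted p = 0.0178), all by edgeR. Tac1, Pdyn, Penk and Chrm4 had estimates from 0.36 to 0.86 and did not pass. For every gene but Adora2a, the ratio of the highest to the lowest library was larger at 72 h than at any other stage, and for Drd2 it was 56.4. Drd2 was 38.8 CPM in replicate 1 of EOD and 49.1 and 65.3 CPM in replicates 1 and 3 of IF16, all within the range of the 12 sham libraries, while it was 1.16 CPM in replicate 2 of EOD and 1.22 CPM in replicate 2 of IF12. The count of rises was 2 without EOD or without IF16. With the shared genes as a covariate only Gpr6 was called higher (0.44, adjusted p = 0.043, edgeR), and Drd1 and Drd2 were both at -0.11.

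To compare the classes without any scaling, counts of a D2-type gene were divided by counts of its D1-type counterpart in the same library, for the dopamine receptors and for the neuropeptide precursors. An exact permutation test, two-sided, with labels exchanged within regimens over 160000 arrangements, compared each stage with sham, and p-values were adjusted over the 10 tests. In sham the Drd2 to Drd1 ratio ran from 0.834 to 1.46 with a mean of 1.18 ± 0.198 (SD, n = 12). At 24 h it ran from 0.173 to 1.17 with a mean of 0.601 ± 0.299 (SD, n = 12). Of those libraries 10 were below the lowest sham library and 12 below the sham median. The mean log2 ratio changed by -1.15 ± 0.26 (SE; exact permutation p = 0.000112, adjusted p = 0.00112). The difference was -1.66 in AL, -1.30 in EOD, -0.82 in IF12 and -0.80 in IF16.

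At 72 h the mean ratio was 0.753 ± 0.25 (SD, n = 12), and 12 of 12 libraries were below the sham median. The log2 change was -0.72 ± 0.18 (exact permutation adjusted p = 0.00125), negative in all 4 regimens. At 12 h the change was -0.56 ± 0.16 (exact permutation adjusted p = 0.0143). It was -1.30 in EOD and -0.03 in IF16, and it missed the threshold without EOD, without IF12 and with same-numbered libraries paired. After ischemia alone and at 3 h the changes of -0.06 and -0.17 did not pass (exact permutation adjusted p = 0.609 and 0.386).

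The ratio of the precursors behaved otherwise. The Penk to Tac1 ratio had a mean of 7.72 ± 1.43 (SD, n = 12) in sham and 7.06 ± 1.51 (SD, n = 12) at 24 h, and the 2 ranges, 5.05 to 9.99 and 4.26 to 9.25, overlapped almost wholly. No stage passed, with log2 changes from -0.18 to 0.02, SE from 0.08 to 0.22, and exact permutation adjusted p from 0.209 to 0.96. At 24 h the change was -0.14 ± 0.11, against -1.15 ± 0.26 for the receptors. At 72 h a single library, replicate 2 of IF12, had a ratio of 31.3 from the fewest Tac1 counts of any library, 24.

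**Figure D3:**
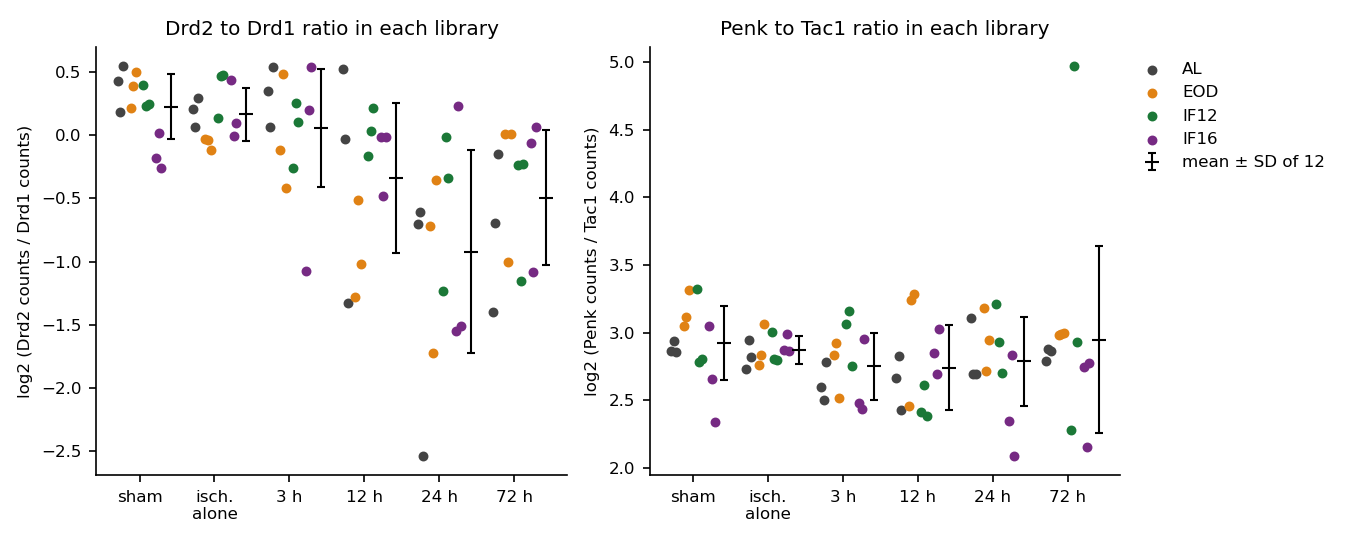
Log2 ratio of Drd2 to Drd1 counts (left) and of Penk to Tac1 counts (right) in each of the 72 libraries by stage, coloured by regimen, with the mean and SD of 12 libraries in black. The receptor ratio was below 0 in 11 of 12 libraries at 24 h, and the precursor ratio stayed between 2.09 and 3.21 there.

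Genes that both kinds of projection neuron share moved in the same direction. Of 16 such genes, 12 were called lower at 3 h and 16 at each of 12, 24 and 72 h, with medians of -0.66, -0.87, -1.57 and -1.08. Large falls among them at 24 h were in Rgs9, a regulator of G protein signalling (-2.79 ± 0.38, edgeR adjusted p = 6.25e-08), and Pde10a, a striatal phosphodiesterase (-2.71 ± 0.33, adjusted p = 6.57e-09). Ppp1r1b, the dopamine-regulated phosphatase inhibitor DARPP-32, changed by -1.52 ± 0.28 (adjusted p = 1.64e-05), and Ptpn5, a striatum-enriched phosphatase, had the smallest change at -0.91 ± 0.11.

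Set against these shared genes, the class means differed as a description. The mean log2 CPM of the D1-type genes minus that of the shared genes was -2.55 ± 0.131 in sham and -2.55 ± 0.257 at 24 h (SD, n = 12). The D2-type genes were at -1.70 ± 0.255 relative to the shared genes in sham, -3.28 ± 0.724 at 24 h and -2.59 ± 0.825 at 72 h. The D2-type genes were above the D1-type genes by 0.85 in sham and below them at 24 h, at -0.72. These means cover unlike members. At 24 h Drd1 and Tac1 fell further than the median of the shared genes, while Pdyn and Chrm4 fell less. Penk fell about as far as Tac1 and short of Drd2, Adora2a and Gpr6. In the fit with the same shared genes as a covariate the estimates of the classes overlapped at 24 h. Its estimates were 0.43 for Drd1, 0.39 for Tac1, 0.23 for Pdyn and -0.15 for Chrm4, against 0.38 for Drd2, 0.39 for Penk, -0.13 for Adora2a and -0.22 for Gpr6, none of them called. Low levels of the shared genes were also seen before reperfusion. Replicate 1 of AL after ischemia alone had a mean of 6.51 for the shared genes, within the 24 h range of 5.89 to 6.96, and its Drd2 to Drd1 ratio was 1.15, while its D2-type genes were 0.02 above the D1-type genes. This gap had a sham median of 0.88. It was 0.11 in replicate 3 of EOD after ischemia alone and 0.26 in replicate 1 of IF16 sham, with shared means of 6.84 and 7.12. In replicates 2 and 3 of AL and replicate 1 of EOD after ischemia alone it was 0.47, 0.67 and 0.45. The part of the shared level in the gap between the classes was not tested.

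**Figure D4:**
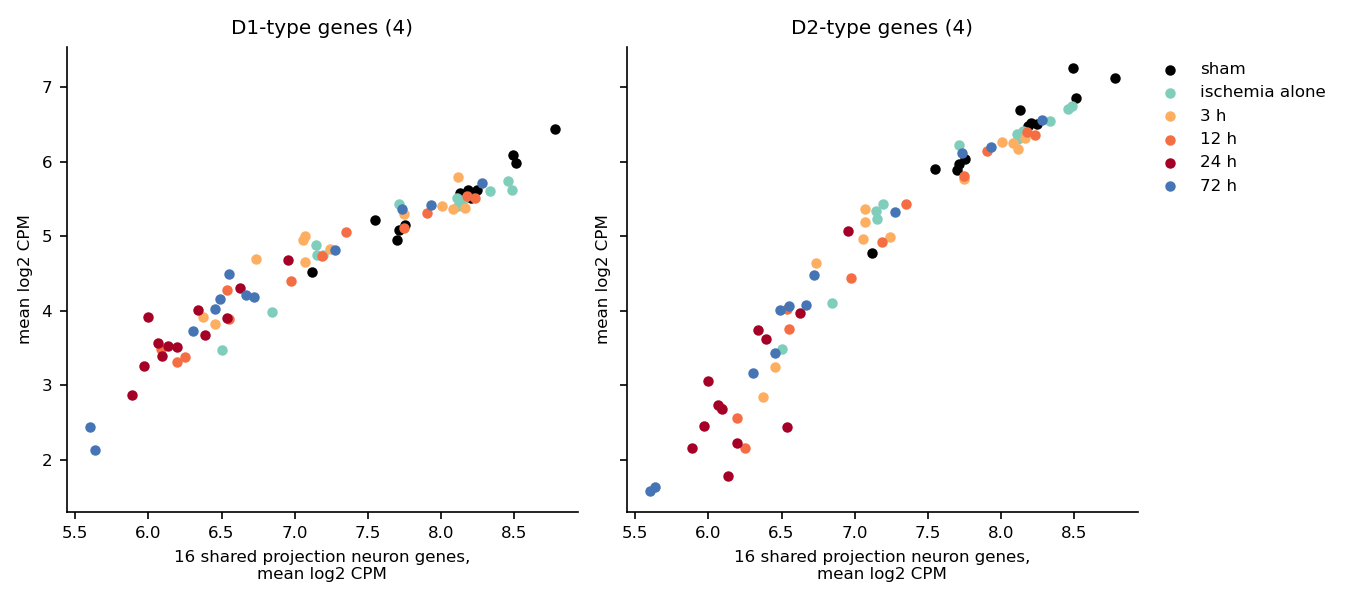
Mean log2 CPM of the 4 D1-type genes (left) and 4 D2-type genes (right) against that of 16 genes shared by both kinds of projection neuron, with each of the 72 libraries as a point coloured by stage. Both rise with the shared genes, and the D2-type genes span more, from 1.58 to 7.25 against 2.12 to 6.43.

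Further genes known from each class gave mixed values at 24 h. Of 5 other D1-type genes, 4 were called lower with a median of -0.92, namely Slc35d3, a transporter-like protein (-2.89 ± 0.39, edgeR adjusted p = 5.62e-08), Isl1, a transcription factor of direct-pathway neurons (-1.79 ± 0.38, adjusted p = 0.000133), Ebf1, also a transcription factor (-0.92 ± 0.15, adjusted p = 1.27e-06), and Sfxn1, a mitochondrial carrier (-0.12 ± 0.04, adjusted p = 0.0111). Eya1 was at -0.17 (adjusted p = 0.229). Of 4 other D2-type genes with an identifier, Syndig1l (-2.66 ± 0.37, adjusted p = 1.14e-07), Upb1 (-0.90 ± 0.25, adjusted p = 0.00266) and Sp9, a transcription factor of indirect-pathway neurons (-0.77 ± 0.15, adjusted p = 4.87e-05), were lower. Plxdc1 was higher by 0.36 ± 0.15 (adjusted p = 0.0436, edgeR).

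Markers of other cells and regions in the slice were measured beside these. Of all 17268 genes tested, 4393 were called higher and 4201 lower at 24 h. At 72 h, 2784 were called higher and 1907 lower. At 24 h the 4 cholinergic interneuron genes, from another neuron of the striatum, were all called lower with a median of -2.09, 8 of 10 general neuron genes were lower with a median of -0.38, and 5 of 7 cortex genes were lower with a median of -0.50. None of 5 GABAergic interneuron genes was called. Hippocampus genes were called in 0 of 7 at 3, 12 and 24 h and 2 of 7 at 72 h, all of the latter higher, with medians of -0.05, 0.61, 0.51 and 0.51 at these stages, and their summed level ran from 29.9 to 276 CPM at 24 h against 33.3 to 178 CPM in sham. Markers of non-neuronal cells were called in both directions. At 24 h, 3 of 4 tested neutrophil genes were called higher with a median of 3.64, 3 of 5 endothelial cell genes were higher and 1 lower, 3 of 6 astrocyte genes were higher and 3 lower, 2 of 6 microglia genes were higher and 1 lower, and 1 of 5 oligodendrocyte genes was lower. At 72 h, 5 of 6 microglia genes were higher with a median of 0.78, 4 of 6 astrocyte genes were higher and 1 lower, 3 of 5 endothelial cell genes were higher, and 0 neutrophil and 0 oligodendrocyte genes were called. The summed level of the microglia genes ran from 293 to 900.2 CPM at 72 h against 259 to 332 CPM in sham, and that of the neutrophil genes from 0.542 to 52.2 CPM at 24 h against 0.0932 to 1.89 CPM in sham. The part of these cells in the falls of the members was not tested. No defining hippocampus gene was at 0 in all libraries of a stage. With the hippocampus genes as a covariate, 5, 7, 8 and 8 members were called at 3, 12, 24 and 72 h.

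By their 24 group means of log2 CPM, the members rose and fell together. Pearson correlations between members ran from 0.807 for Drd1 with Chrm4 to 0.986 for Drd2 with Gpr6, and they are given as a description, since the points share libraries, depth and slice. Among 14608 genes outside the 8 with a mean of at least 1 CPM, those most like Drd1 were Slc35d3 (0.979), Rarb, Adcy5, Meis2 and Serpina9, and among those most like Drd2 were Slc35d3 (0.992), Serpina9, Rasgrp2 and Syndig1l.

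Within regimens, each stage was compared with the 3 sham libraries of the same regimen, which the 5 comparisons of a regimen share. At 24 h, 7 genes were called lower in AL (where 3.00% of genes were called lower), 5 in EOD (3.5%), 8 in IF12 (20.4%) and 4 in IF16 (7.93%). At 72 h, 5 were lower in AL (0.675%) and 8 in IF12 (10.8%), and 0 were called in EOD (0.0% called in either direction) or IF16 (0.483%). In EOD and IF16 no member had an unadjusted edgeR p under 0.05, against 1880 of 16415 and 2211 of 16355 genes. In AL, Pdyn was the member not called at 24 h (-1.03, adjusted p = 0.143), and Pdyn, Chrm4 and Penk were those not called at 72 h (edgeR adjusted p = 0.178, 0.206 and 0.0576). In EOD, Drd1, Penk and Tac1 were not called at 24 h (edgeR adjusted p = 0.0998, 0.225 and 0.213). At 3 h, Drd1, Drd2, Adora2a, Gpr6 and Penk were lower in IF12 (5 members; 16.0%) and 0 in AL, EOD and IF16, where 0.0365%, 0.0548% and 8.62% of genes were called in either direction. At 12 h, Gpr6 in AL was the only call (-2.29 ± 0.54, edgeR adjusted p = 0.0418, where 0.48% of genes were lower). In EOD, IF12 and IF16, 0 were called (0.0609%, 0.0122% and 0.0856% of genes). All 8 had an unadjusted edgeR p under 0.05 in EOD, as did 2892 of 16415 genes. After ischemia alone, 0 were called in AL, EOD, IF12 and IF16 (0.0%, 0.0%, 0.0487% and 0.0122% of genes). All 8 had an unadjusted edgeR p under 0.05 in AL, as did 551 of 16452 genes.

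In AL, Drd2 was at 91.2, 33.7 and 69.0 CPM in the sham libraries, 6.32, 17.5 and 21.6 after ischemia alone, and 53.5, 54.9 and 48.1 at 3 h. The 3 ischemia libraries were all below sham, and those at 3 h were all within its range. At 24 h the values were 6.95, 7.77 and 0.987 CPM and at 72 h 4.07, 8.85 and 13.9 CPM, all below sham. The 24 h change was -3.64 ± 0.75 (adjusted p = 0.0103, edgeR). In EOD, Drd2 went from 38.1, 35.8 and 38.6 CPM in sham to 5.15, 2.24 and 3.91 at 24 h (-3.31 ± 0.90, adjusted p = 0.0441, edgeR), and stood at 38.8, 1.16 and 22.5 CPM at 72 h. The 72 h libraries thus ranged from just above the sham libraries of this regimen to its lowest value.

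In IF12, Drd2 was at 60.0, 66.0 and 65.2 CPM in sham, 15.2, 21.0 and 13.0 at 3 h, 23.0, 57.9 and 64.9 at 12 h, 2.55, 9.31 and 4.89 at 24 h, and 8.59, 1.22 and 8.88 at 72 h. Its libraries were below all sham libraries at 3, 24 and 72 h, while 2 of the 3 libraries at 12 h were close to sham. The changes at 3, 24 and 72 h were -1.96 ± 0.50, -3.5 ± 0.54 and -3.36 ± 0.54 (edgeR adjusted p = 0.00885, 0.000278 and 0.000609). In IF16, Drd2 was at 14.9, 77.0 and 84.6 CPM in sham, 1.92, 21.1 and 2.43 at 24 h and 49.1, 3.66 and 65.3 at 72 h, so that both later stages overlapped with sham. Its 24 h change of -2.77 ± 1.07 (adjusted p = 0.0819) did not pass, while Gpr6 (-2.87 ± 0.94, adjusted p = 0.0469), Drd1 (-2.66 ± 0.77, adjusted p = 0.0307), Tac1 (-2.26 ± 0.67, adjusted p = 0.0325) and Chrm4 (-0.83 ± 0.25, adjusted p = 0.0359) did by edgeR. With 3 libraries a group these counts were fragile: leaving out 1 of the 6 libraries gave 4 to 6 calls in AL, 0 to 2 in EOD and 0 to 6 in IF16 at 24 h (0 without IF16 sham replicate 2 or 3 or replicate 3 at 24 h), and 8 in IF12. At 72 h the same left 1 to 4 in AL, with 1 without any of AL sham replicates 1 and 3 or the 3 libraries at 72 h, and 8 in IF12. At 3 h in IF12 it gave 2 to 4, with 2 without replicate 1 or 3 of that stage, and at 12 h in AL 0 to 5, with 5 without replicate 2 of that stage and 0 without any other library.

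**Figure D5:**
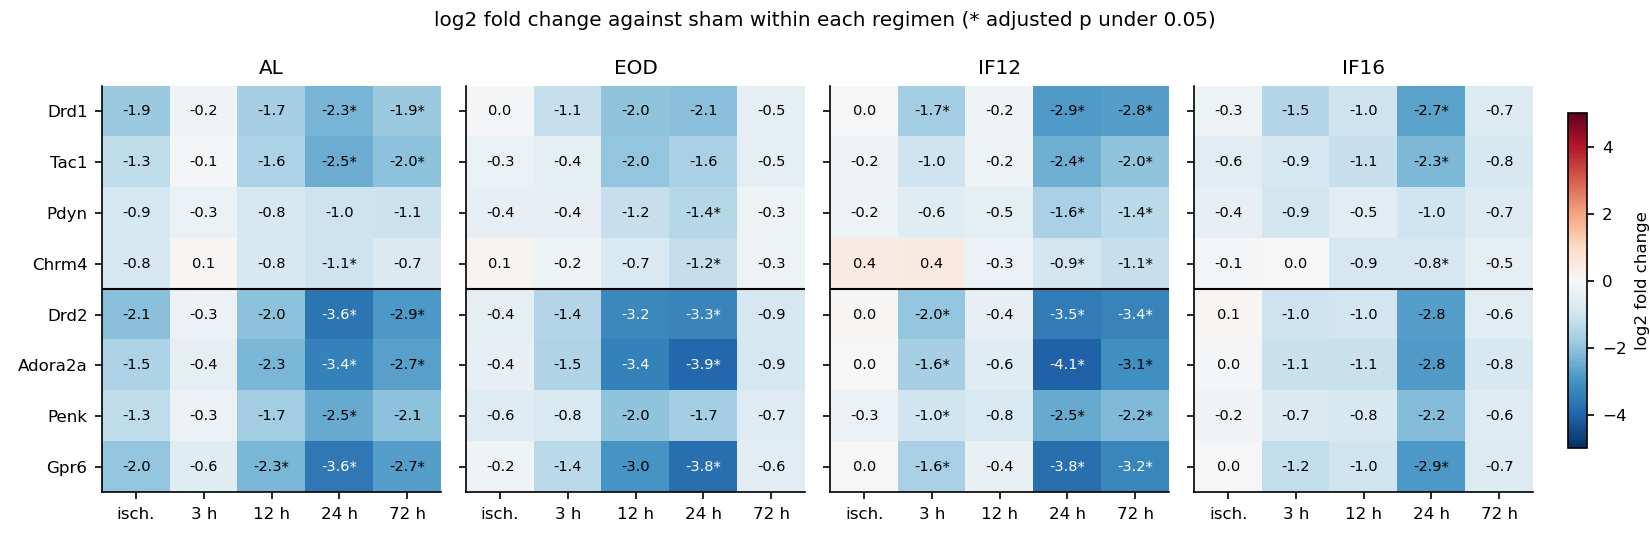
Log2 fold change against sham for the 4 D1-type genes (top) and 4 D2-type genes (bottom) at the 5 later stages (isch., ischemia alone) in each regimen, with the colour scale in log2 units and an asterisk for an edgeR adjusted p under 0.05. The lowest cell is Adora2a at 24 h in IF12, at -4.06, and every cell at 24 and 72 h is below 0.

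Whether the responses differed between regimens was tested as a stage by regimen interaction. No member was called, where 0.0984% of genes were, with edgeR adjusted p from 0.103 for Drd1 to 0.595 for Penk. Unadjusted, Drd1, Gpr6, Chrm4 and Drd2 had an edgeR p under 0.05, as did 4112 of 17268 genes. DESeq2 called Drd1, Gpr6 and Chrm4 (adjusted p = 0.0136, 0.0215 and 0.0253). The count was 3 without IF16 and 1 without EOD. The presence of calls in IF12 and AL at 72 h and their absence in EOD and IF16 is therefore no shown difference.

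Regimens were also compared with AL directly. Averaged over the 6 stages, 0 members were called in EOD, IF12 or IF16 against AL, where 0.0%, 0.0% and 0.00579% of genes were called. In EOD all 8 estimates were negative, with a median of -0.37, and in IF16 all 8 were positive, with a median of 0.62 and a largest value of 0.81 ± 0.35 for Drd2 (adjusted p = 0.193, edgeR). In IF16, 5 members had an unadjusted edgeR p under 0.05, against 2 in EOD and 0 in IF12. The same held for 3577, 1279 and 918 of all 17268 genes, in that order. Within single stages, 0 of 8 were called in each of 18 comparisons, where 8.75% of genes were called in IF12 and 0.277% in EOD at 3 h and 0.0% in the other 16. The nearest was IF12 at 3 h, with a lowest adjusted p of 0.0829 by edgeR. After ischemia alone, 7 members had an unadjusted edgeR p under 0.05 in IF12 and 7 in IF16, with medians of 1.26 and 1.21 above AL. Of all 15991 genes tested there, 1966 in IF12 and 2885 in IF16 had such a p. The 3 AL libraries of that stage had 17.5, 69.7 and 76.1 CPM of Adora2a against 170, 123 and 142 CPM in IF12, and the first of them is the one with 197 CPM of hippocampus genes.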

How the data were processed

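Per the labels' protocols, the brain RNA had an integrity number over 7. The submitters' processing notes name CASAVA, TopHat2, DESeq2 and GRCm38 (mm10); the sources used here do not give versions, annotation or the counting rule, strand included. The authors deposited raw counts per Ensembl gene and FPKM values, which equalled counts scaled by gene length and library total within 1.8e-07. From the counts, 17268 genes passed filterByExpr and were fitted with edgeR 4.0.16 (R 4.3.3; TMM, quasi-likelihood, Benjamini-Hochberg over all genes, threshold 0.05) in 1 fit of 72 libraries, and again within each regimen and stage, with 16355 to 16452 and 15878 to 16242 genes. DESeq2 1.42.0 was an alternative. The rule was to name all 8 genes in each comparison; steps between stages, regimen comparisons and some single regimens are given partly as counts and ranges. The members and gene lists were chosen with earlier results of these data known, and no list test was made. No library pair was identical. On simulated data, the fit averaged over regimens recovered 83% of 2-fold and 98% of 4-fold changes at 24 h, and the AL fit 38% and 74%. The changed genes were drawn at random from all that passed the filter, so these rates need not hold for the 8 members. Replicate numbers did not pair libraries across groups. Values of 1 gene of these lists are not reported here.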

Additional observations from a re-analysis of the deposited data

Results flagged for a closer look

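After ischemia alone, Chrm4 differed from sham in opposite directions in 2 regimens. In AL it was 43.4, 33.2 and 44.4 CPM in sham and 17.1, 27.2 and 23.5 CPM after ischemia, all below sham. In IF12 it was 34.5, 37.9 and 40.4 CPM in sham and 55.1, 41.4 and 53.3 CPM after ischemia, all above sham. The difference between the 2 log2 effects was 1.24. It stood out because every ischemia library was below sham in one regimen and above sham in the other. A search over all members, later stages and regimens gave it as the only such case. Chrm4 was called against sham in neither regimen, and its unadjusted edgeR p was under 0.05 in AL but not in IF12. The difference between the 2 regimens was itself not tested. The joint interaction test over all stages and regimens gave Chrm4 an adjusted p of 0.129 by edgeR.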

How the results depend on the processing

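Counts below are members called out of 8. Of the alternatives, the level of the shared projection neuron genes as a covariate changed most: it gave 1 at 3 h, 0 at 12, 24 and 72 h, and 1, 2, 0 and 1 for the 4 steps from ischemia alone to 72 h. Under it these estimates changed sign. For ischemia alone, Adora2a was 0.20, Chrm4 0.072, Drd1 0.0039, Drd2 0.11 and Gpr6 0.076. At 3 h, Adora2a was 0.044, Drd2 0.15, Gpr6 0.037, Pdyn 0.017, Penk 0.29 and Tac1 0.43. At 12 h, Drd1 was 0.27, Drd2 0.21, Pdyn 0.038, Penk 0.036 and Tac1 0.15. At 24 h, Drd1 was 0.43, Drd2 0.38, Pdyn 0.23, Penk 0.39 and Tac1 0.39. At 72 h, Adora2a was 0.20, Drd1 0.32, Drd2 0.27, Gpr6 0.23, Pdyn 0.12, Penk 0.18 and Tac1 0.20. From 12 to 24 h, Adora2a was 0.072, Drd1 0.17, Drd2 0.17, Pdyn 0.19, Penk 0.35 and Tac1 0.24, and from 24 to 72 h Drd1 and Drd2 were -0.11. The shared genes fell with the members, so this covariate takes out a fall common to both, and the cause was not tested.

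Without EOD the counts were 2 at 3 h, 3 at 12 h, 2 from 24 to 72 h and 1 for the interaction. Without IF12 they were 0 at 3 h, 0 at 72 h and 0 from 12 to 24 h. Without IF16 they were 2 at 3 h, 2 from 24 to 72 h and 3 for the interaction. Without AL they were 5 at 12 h and 4 from ischemia alone to 3 h. Chrm4 after ischemia alone was 0.15 without AL, and at 3 h it was -0.062 without IF12 and from -0.022 to 0.13 without 1 library (below 0 without AL replicate 2). With hippocampus genes as a covariate, 8 rose from 24 to 72 h. Without the 7 libraries with high hippocampus sums, chosen after seeing the data, 2 fell from 12 to 24 h and the Penk to Tac1 change at 72 h was -0.17. The Drd2 to Drd1 change at 12 h was -0.32 without EOD (exact permutation adjusted p = 0.283) and -0.66 without IF12 (adjusted p = 0.0517), and after ischemia alone 0.062 without EOD. The Penk to Tac1 change was 0.023 after ischemia alone without EOD, -0.30 at 12 h without IF16 (exact permutation adjusted p = 0.0331) and -0.11 at 72 h without IF12.

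DESeq2 called 3 for the interaction, 1 after ischemia alone and 3 at 12 h in AL, 4 and 1 at 12 h in EOD and IF16, and 1 each for IF12 and IF16 against AL after ischemia alone and EOD and IF12 against AL at 3 h, 4 in all. Without a filter there were 6 at 12 h in AL, and 1, 1 and 3 for IF12 against AL after ischemia alone and EOD and IF12 against AL at 3 h, 5 in all. In 1 fit of 72 libraries there were 0 at 12 h and 2 at 72 h in AL, 3 at 12 h in EOD, 0 at 3 h in IF12 and 7 at 24 h in IF16. With only the groups compared there were 0 at 12 h in AL, 7 at 12 h in EOD, 8 at 3 h in IF12 and 0 at 24 h in IF16. The causes were not tested.

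Leaving out 1 library gave 2 to 5 calls at 3 h over regimens, 0 to 5 at 12 h, 4 to 6 at 24 h and 1 to 4 at 72 h in AL, 0 to 2 at 24 h in EOD, 2 to 4 at 3 h in IF12, 0 to 6 at 24 h in IF16 and 0 to 3 for IF12 against AL after ischemia alone. The Penk to Tac1 change at 72 h ran from -0.17 to 0.16.

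Libraries of the same replicate number did not deviate together (median correlation -0.0058 over 828 pairs), and 18 of 72 correlated best with their own number. With the replicate block, 0 were called at 12 h in AL, 3 at 24 h in EOD, 3 at 24 h in IF16 and 6 from 12 to 24 h, and the Drd2 to Drd1 change at 12 h was -0.56 (exact permutation adjusted p = 0.0618). Depth limits Gpr6 most, with 8 counts in its lowest library.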
